A study of Mus musculus with 50 samples.

Results

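The genes described here are 34 mouse genes that encode the contractile apparatus of heart muscle, its calcium-handling proteins and the natriuretic peptides. They were chosen by name from the 24391 genes of the count tables, with earlier results of these data known. All 34 were in the tables and 31 had enough reads to be tested. The members lie on 14 chromosomes, and 0 lie on the X chromosome. They fall into 6 roles: thick filament, thin filament, titin and M-band, Z-disc and attachment, calcium handling, and natriuretic peptides.

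The study asked what Repeat B of Xist, the long noncoding RNA that coats and silences the inactive X chromosome, is needed for. Repeat B is a tandem repeat inside Xist that is known for bringing Polycomb complexes to that chromosome. RNA-seq of polyA RNA was deposited for wild-type, RepB+/- (Repeat B lost from one Xist copy) and RepB-/- (lost from both copies) mouse embryonic stem (ES) cells, with 2 libraries each, and for 1 wild-type and 1 library with loss of Repeat B (RepB) of mouse embryonic fibroblasts (MEF). Every line is labelled as a hybrid of CAST/Ei x 129/Sv/Jae. By the protocol in the labels, ES cells were freed of feeder cells, kept as embryoid bodies for 4 days, and then grown on gelatin for 10 days, so the ES libraries are of mixed differentiated cultures and not of sorted heart cells. The labels do not say which Xist allele the RepB+/- line has lost, how many clones stand behind a genotype, or whether replicates 1 and 2 are separate cultures, so p-values measure only the spread between these libraries, which may be technical.

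Library totals ran from 8000722 to 28045645 counts over the 6 ES libraries, and were 12126941 and 18631736 in the wild-type and RepB MEF libraries. Xist itself was read in every ES library, at 809 to 1149 CPM (counts scaled to library size with edgeR's TMM factors), which checks nothing about the deletion, because the tables count the whole gene. The median log2 fold change over all 15149 tested genes was 0.02 in RepB+/- and 0.01 in RepB-/- against wild type.

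The sarcomere is the repeating contractile unit of striated muscle. Myosin of the thick filament pulls on actin of the thin filament, troponin and tropomyosin gate that contact by calcium, and titin, the M-band and the Z-disc hold the filaments in register. Calcium leaves the sarcoplasmic reticulum through the ryanodine receptor and is pumped back by the SERCA pump, which phospholamban restrains. Embryoid bodies are known to form beating heart muscle cells during outgrowth, and such cells turn on these genes together.

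Promoter sequence is given for a few members because many muscle genes are known to carry CArG boxes, bound by serum response factor, or MEF2 sites near their start. The windows below are the 250 bases before the RefSeq transcript start on the GRCm38.p6 assembly, written 5′ to 3′ on the gene's own strand. Lower case is plain sequence, and capitals mark a CArG box (Actc1, Myl3), a MEF2 site (Mybpc3) or the letters CATTCC on either strand (Myl3, Myh6, Myh7). For Myh7 the window of 1 of its 2 listed starts is shown, and the other window holds none of the motifs searched. Hspb7, whose level did not pass the test in any comparison, is shown beside them, and holds none of the 5 motifs searched. The windows shown are a selection. Actn2, Ryr2, Tnni1 and Myl4, which fell in both lines, also held none of the 5. Tpm1, Pln and Nppb, called against wild type in neither line, held a match.
Actc1, chr2:114052876-114053125, minus strand: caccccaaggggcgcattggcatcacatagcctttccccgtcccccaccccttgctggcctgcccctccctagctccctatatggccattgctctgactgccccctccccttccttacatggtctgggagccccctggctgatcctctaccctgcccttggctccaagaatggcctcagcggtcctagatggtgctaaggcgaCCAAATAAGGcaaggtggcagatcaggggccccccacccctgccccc
Myl3, chr9:110763428-110763677, plus strand: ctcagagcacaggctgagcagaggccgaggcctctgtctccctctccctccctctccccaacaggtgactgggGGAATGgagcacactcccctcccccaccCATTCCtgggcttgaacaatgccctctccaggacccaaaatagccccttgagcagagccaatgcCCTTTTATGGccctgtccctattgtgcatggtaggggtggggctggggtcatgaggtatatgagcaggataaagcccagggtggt
Mybpc3, chr2:91117894-91118143, plus strand: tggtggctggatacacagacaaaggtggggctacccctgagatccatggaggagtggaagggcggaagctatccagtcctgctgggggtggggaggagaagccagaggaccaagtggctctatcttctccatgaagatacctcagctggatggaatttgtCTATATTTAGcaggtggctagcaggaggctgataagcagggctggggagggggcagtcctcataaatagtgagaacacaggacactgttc
Myh6, chr14:54966608-54966857, minus strand: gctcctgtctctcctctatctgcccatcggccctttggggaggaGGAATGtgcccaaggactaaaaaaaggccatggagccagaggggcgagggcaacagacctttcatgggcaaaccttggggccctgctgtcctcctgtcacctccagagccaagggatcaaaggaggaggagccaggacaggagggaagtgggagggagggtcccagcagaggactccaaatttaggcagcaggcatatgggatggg
Myh7, chr14:54994627-54994876, minus strand: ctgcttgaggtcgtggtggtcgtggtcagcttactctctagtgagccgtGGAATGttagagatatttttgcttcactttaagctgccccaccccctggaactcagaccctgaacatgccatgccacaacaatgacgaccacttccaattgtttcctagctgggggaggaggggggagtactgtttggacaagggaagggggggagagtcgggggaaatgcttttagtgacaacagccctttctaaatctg
Hspb7, chr4:141420529-141420778, plus strand: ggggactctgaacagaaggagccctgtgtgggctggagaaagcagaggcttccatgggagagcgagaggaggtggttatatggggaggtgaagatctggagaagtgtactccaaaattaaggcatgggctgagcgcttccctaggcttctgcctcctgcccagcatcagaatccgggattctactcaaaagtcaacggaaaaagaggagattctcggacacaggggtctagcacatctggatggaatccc

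RefSeq windows were found for 30 of the 34 members, 39 windows in all, since some genes have several starts. A CArG box was in 17.95% of the member windows and in 1.467% of all 32851 windows of the same length. The members with one were Actc1, Ldb3, Myl3, Myl7, Myom1 and Nebl. Both windows of Ldb3 overlap and hold the same site, which is counted in each. A MEF2 site was in 12.82% of member windows and 2.919% of all. The letters CATTCC were in 25.64% of member windows and in 12.64% of all windows. For AGATAA, which GATA factors are known to bind, the shares of member and of all windows were 23.08% and 9.988%. For TATAAA, the core of the TATA box, the shares of member and of all windows were 10.26% and 12.37%. Over windows of tested genes alone the shares were 1.174% (CArG box), 1.547% (MEF2 site), 11.09% (CATTCC), 6.065% (AGATAA) and 6.797% (TATAAA). The member share of TATAAA was thus below that of all windows and above that of tested genes. Both strands were searched, and no other motif was. Of the 18 members with a window that fell in RepB-/- cells, 5 had a CArG box and 2 a MEF2 site. A match is a description of letters and no test was run on these shares; the motifs were chosen with the expression results known.

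Most of the heart muscle genes were lower in both Repeat B lines than in wild type. Because the list was chosen with earlier results of these data known, its counts describe these genes and are not independent support. In RepB+/- cells 17 of the 31 tested members fell and 0 rose by edgeR's quasi-likelihood test (Benjamini-Hochberg adjusted p under 0.05 over all 15149 genes), against 16% of all genes called, 6.84% that fell and 9.12% that rose. In RepB-/- cells 19 of 31 fell and 0 rose, against 12.8% of all genes called, 5.49% that fell and 7.27% that rose. The median log2 fold change of the tested members was -0.63 in RepB+/- and -0.75 in RepB-/-, and 27 of 31 were below 0 in each. At an unadjusted p under 0.05, 1 member was higher in RepB+/- (Myoz2) and 0 in RepB-/-; DESeq2 called 0 risen in either. Both comparisons use the same 2 wild-type libraries. The counts moved with single libraries. In RepB+/- 13 and 11 members fell without wild-type replicate 1 and 2, and 13 and 18 without RepB+/- replicate 1 and 2. In RepB-/- 16 and 10 fell without wild-type replicate 1 and 2, and 14 and 16 without RepB-/- replicate 1 and 2.

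Members that fell in both lines numbered 15, 2 (Myl7 and Des) passed only in RepB+/- and 4 (Tnni3, Nebl, Xirp1 and Ankrd1) only in RepB-/-; the differences between the lines are tested further on. Both RepB+/- libraries lay below both wild-type libraries for 24 members, all of them tested, against 28% of all tested genes, and both RepB-/- libraries did so for 26, against 27.9%. Per kilobase of exon, the members with the highest wild-type means were Tpm1 at 409 CPM per kb, Des at 128, Tnni1 at 87.5, Myl7 at 84.2, Myl4 at 69.9 and Actc1 at 69.5. In these bulk cultures fewer heart muscle cells and less of each transcript per cell cannot be told apart.

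**Figure D1:**
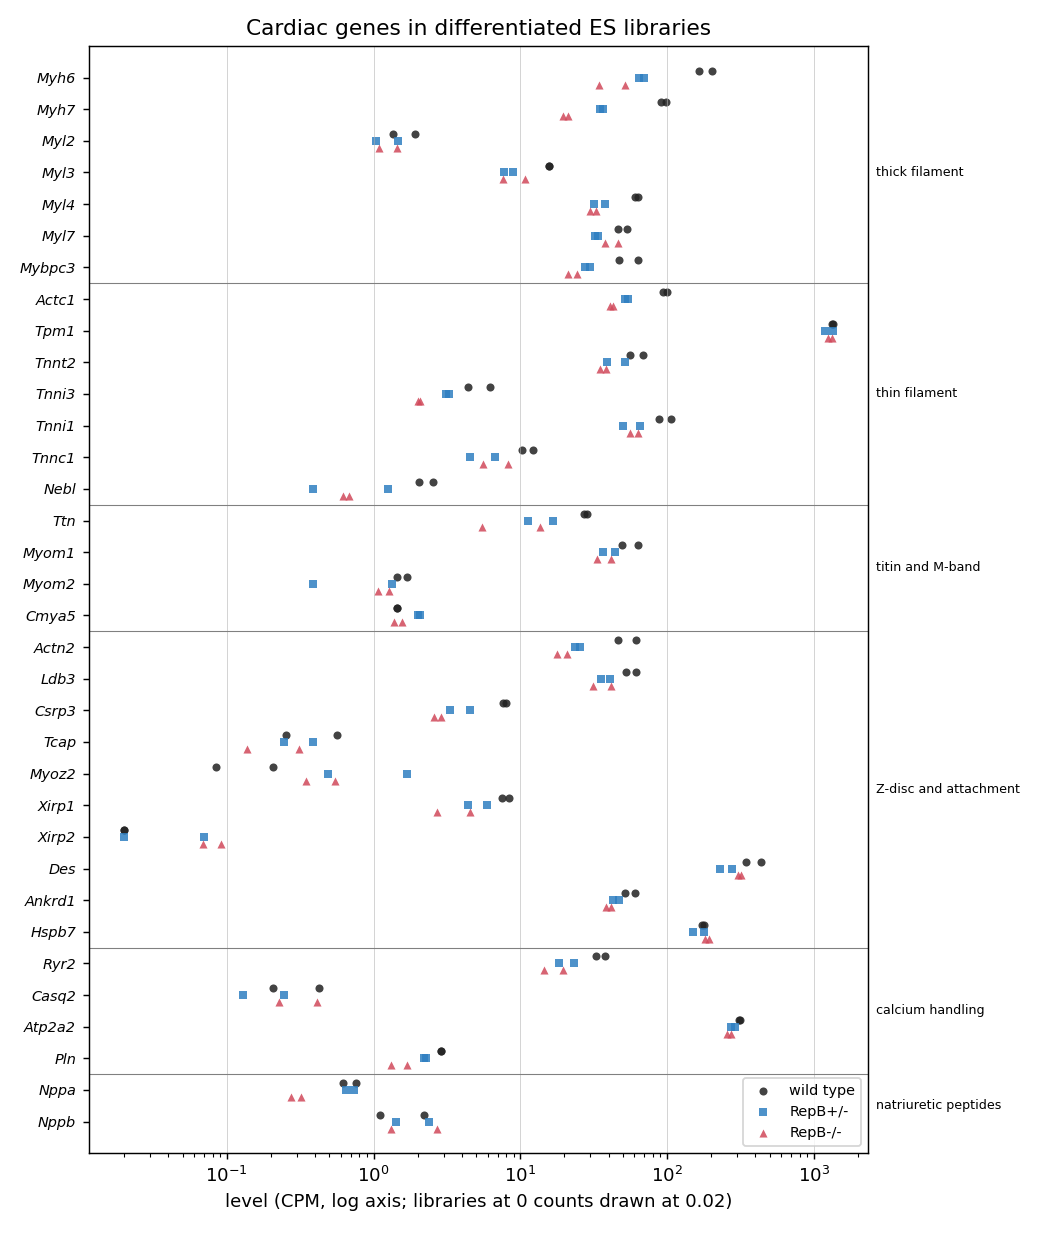
Level of each member in the 6 ES libraries, in CPM on a log axis, grouped by role; black circles are wild type, blue squares RepB+/- and red triangles RepB-/-, and a library with 0 counts is drawn at 0.02. Myh6 and Myh7 show 3 separate groups, with wild type at 91.2 CPM or more, while the 6 libraries of Tpm1, near the right edge, lie close together.

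Of 7 thick-filament genes 6 fell in RepB+/- and 5 in RepB-/-, and among them were the 2 largest falls of called members. Myh6 encodes the alpha heavy chain of cardiac myosin, the main motor of the mouse atrium and adult ventricle. It stood at 165 and 202 CPM in wild type, compared with 64.1 and 69.1 in RepB+/- and with 34.7 and 51.4 in RepB-/-. The 3 genotypes did not overlap. For RepB+/- its log2 fold change was -1.46 (SE 0.15, edgeR adjusted p = 2.96e-05), and for RepB-/- it was -2.09 (SE 0.16, edgeR adjusted p = 1.75e-06), or 4.27-fold lower. Myh7, the beta heavy chain that dominates in the fetal ventricle, stood at 91.2 and 98.6 CPM in wild type, against 36.9 and 34.8 in RepB+/- and against 19.6 and 21.3 in RepB-/-. Its log2 fold change was -1.40 (SE 0.11, edgeR adjusted p = 3.83e-06) and -2.21 (SE 0.11, edgeR adjusted p = 3.13e-08), or 4.64-fold lower in RepB-/-. Among all 15149 genes, Myh7 ranked 1 by p-value in RepB-/- and 5 in RepB+/-. The heavy chains are close in sequence, so reads between them may be split uncertainly, and Myh7 overlaps the noncoding gene Mhrt (23 counts in the 6 ES libraries).

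Mybpc3, which encodes cardiac myosin-binding protein C, fell from 47.1 and 63.8 CPM to 27.6 and 29.9 in RepB+/- (log2 fold change -0.95, SE 0.15, edgeR adjusted p = 0.00055) and to 21.0 and 24.3 in RepB-/- (-1.29, SE 0.14, edgeR adjusted p = 4.76e-05). The light chains moved less. Myl4, the atrial essential chain, stood at 60.3 and 63.1 CPM in the wild-type libraries, next to 31.8 and 37.6 for RepB+/- and 32.7 and 29.9 for RepB-/-, with log2 fold changes of -0.84 (SE 0.12) and -0.98 (SE 0.12) that passed in both lines; it overlaps Cdc27, which had 8830 counts, and the strand setting of the counting was not stated. Myl3, the ventricular essential chain, was at 15.6 and 15.8 CPM in wild type, compared with 8.99 and 7.75 in RepB+/- and with 10.7 and 7.63 in RepB-/-, and fell by 0.88 and 0.77 on the log2 scale; its RepB-/- call was lost without either wild-type library or without RepB-/- replicate 2 (highest edgeR adjusted p = 0.136). For Myl3 and Myl4 all libraries of the 2 Repeat B lines lay below wild type, and those of the lines overlapped each other.

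The regulatory light chains were the thick-filament genes with the smallest differences. Myl7, the atrial chain, was at 52.9 and 46.5 CPM in wild type and fell to 34.0 and 32.3 in RepB+/- (log2 fold change -0.58, SE 0.13, edgeR adjusted p = 0.00655; lost without wild-type replicate 1, adjusted p = 0.0733). In RepB-/- it was at 46.5 and 38.0 (-0.24, SE 0.12, adjusted p = 0.229), next to the wild-type values. Myl2, the ventricular chain, was near 1 CPM throughout, from 1.03 to 1.91, and did not pass in either line (-0.32 and -0.38). Summed over the 7 thick-filament genes, levels were 434 and 491 CPM in wild type, against 205 and 212 in RepB+/- and against 167 and 174 in RepB-/-.

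Of 7 thin-filament genes 4 fell in RepB+/- and 6 in RepB-/-, all but tropomyosin in at least 1 line. Actc1, cardiac alpha-actin, was at 99.6 and 93.7 CPM in the wild-type libraries, next to 51.4 and 54.5 for RepB+/- and 43.0 and 40.8 for RepB-/-. The 3 groups did not overlap, and the log2 fold changes were -0.87 (SE 0.11, edgeR adjusted p = 9.47e-05) and -1.21 (SE 0.10, edgeR adjusted p = 8.42e-06). Its coding sequence is close to that of the skeletal actin gene Acta1, whose 8.32 to 10.2 CPM did not pass the test in either line (log2 fold changes 0.13 and -0.06). Tnnt2, cardiac troponin T, which ties troponin to tropomyosin, was at 55.5 and 69.0 CPM in wild type, compared with 39.0 and 52.0 in RepB+/- and with 38.3 and 35.2 in RepB-/- (-0.47, SE 0.14, and -0.75, SE 0.14; both called). Tnnc1, the calcium-binding troponin C of heart and slow muscle, was at 12.3 and 10.3, 6.74 and 4.52, and 8.28 and 5.53 CPM (-0.94, SE 0.24, and -0.71, SE 0.22; both called).

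The inhibitory troponins switch from the slow skeletal form, Tnni1, to the cardiac form, Tnni3, as the heart matures. Tnni1 was at 88.6 and 106 CPM in wild type, against 50.2 and 65.0 in RepB+/- and against 62.9 and 55.5 in RepB-/-, and fell in both lines (-0.77, SE 0.13, and -0.71, SE 0.13). Tnni3 was at 4.39 and 6.19, 3.27 and 3.10, and 2.07 and 2.01 CPM; it did not pass in RepB+/- (-0.70, SE 0.27, adjusted p = 0.0915) and fell in RepB-/- (-1.35, SE 0.27, edgeR adjusted p = 0.00383). Nebl, a nebulin relative that reaches from the Z-disc along actin, fell in RepB-/- from 2.53 and 2.03 CPM to 0.621 and 0.686 (-1.82, SE 0.43). Tpm1, the tropomyosin that fibroblasts and smooth muscle make too, was the most abundant member at 1333 and 1348 CPM in the wild-type libraries, next to 1194 and 1351 for RepB+/- and 1326 and 1244 for RepB-/-; its log2 fold changes of -0.08 (SE 0.15) and -0.06 (SE 0.15) did not pass.

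Several thin-filament calls were lost when 1 library was left out, with log2 fold changes that stayed below 0. In RepB+/-, Tnnt2 lost its call without wild-type replicate 2 or RepB+/- replicate 1 (log2 fold changes -0.31 and -0.26, highest edgeR adjusted p = 0.329) and Tnnc1 without wild-type replicate 1 (-0.82, edgeR adjusted p = 0.107). In RepB-/-, Tnnt2 (-0.59, edgeR adjusted p = 0.0534), Tnni3 (-1.10, 0.0634) and Tnni1 (-0.58, 0.0502) lost theirs without wild-type replicate 2. Nebl lost its call there without wild-type replicate 1 or either RepB-/- library, with log2 fold changes of -1.64, -1.74 and -1.88 (highest edgeR adjusted p = 0.119). Tnnc1 lost it under DESeq2 (-0.72) and on leaving out wild-type replicate 1 (-0.58), or the second (-0.82), or else RepB-/- replicate 2 (-0.46, highest edgeR adjusted p = 0.334). Actc1 kept its call in both lines under all 11 alternatives run.

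**Figure D2:**
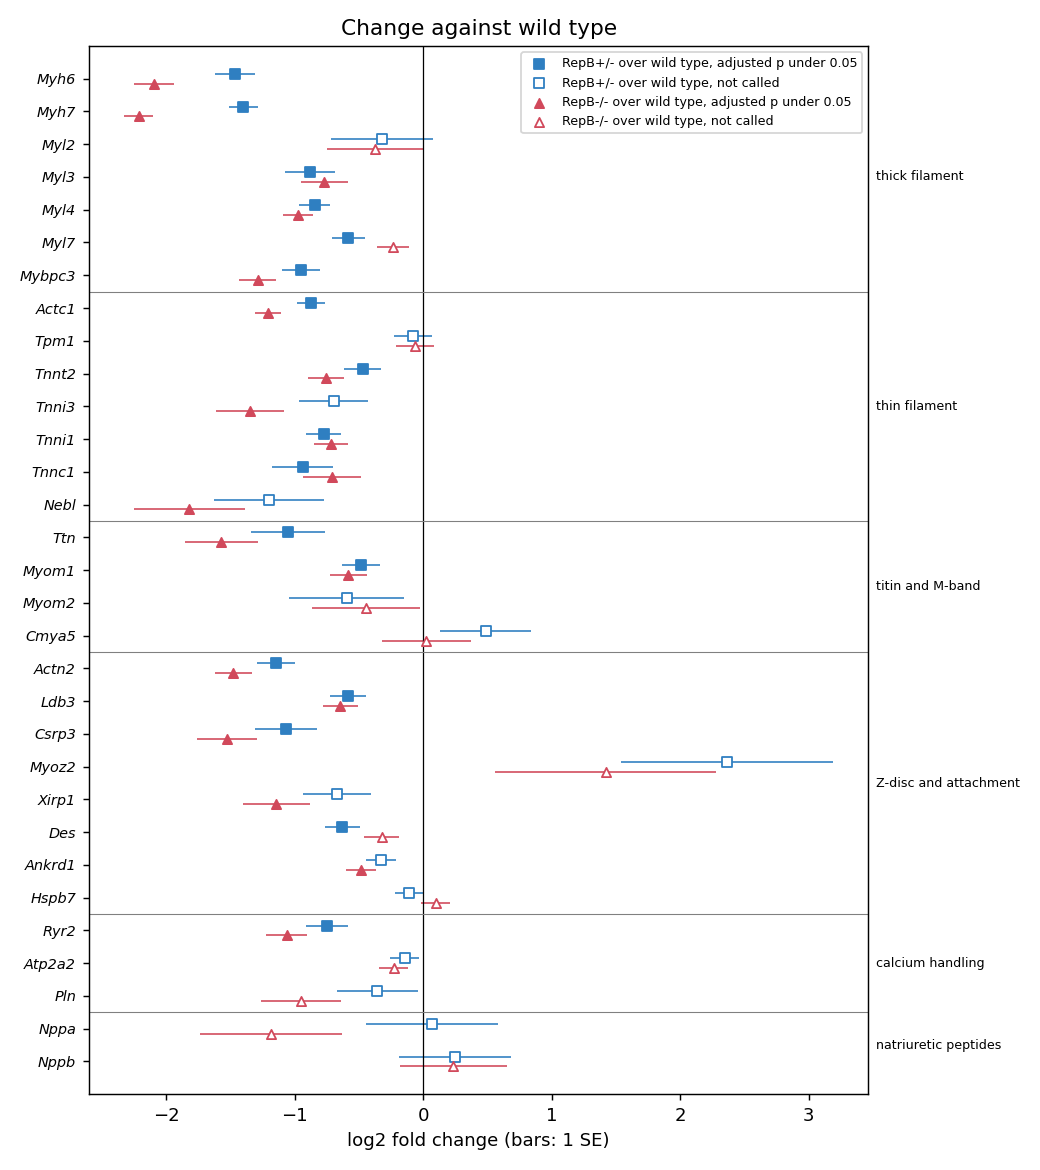
Log2 fold change of each tested member against wild type, with bars of 1 SE, for RepB+/- (blue squares) and RepB-/- (red triangles); filled symbols passed an adjusted p of 0.05 and open ones did not. The filled symbols all lie left of 0, from -2.21 for Myh7 in RepB-/- to -0.47 for Tnnt2 in RepB+/-, and the open symbols include Tpm1, Hspb7 and Atp2a2 near 0.

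Ttn encodes titin, the giant spring that spans from Z-disc to M-band. Its level was at 27.0 and 28.7 CPM in wild type, compared with 11.2 and 16.8 in RepB+/- and with 5.45 and 13.6 in RepB-/-. All Repeat B libraries lay below wild type, and the RepB-/- libraries stood far apart from each other. Ttn fell in both lines (log2 fold change -1.05, SE 0.29, edgeR adjusted p = 0.0226, and -1.57, SE 0.28, edgeR adjusted p = 0.00202); in RepB+/- the call was lost under DESeq2 and on leaving out either of the wild-type libraries, or else RepB+/- replicate 1 (highest adjusted p = 0.242), and without RepB-/- replicate 1 the RepB-/- log2 fold change was -1.03. Its exons sum to 104.3 kb, and the 304 tested genes longer than 10 kb had a median log2 ratio of replicate 2 over replicate 1 of 0.25 in RepB-/-, 0.07 in wild type and -0.0035 in RepB+/-; the part of this length trend in the Ttn values was not tested.

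Of the 4 titin and M-band genes, Ttn and Myom1 were the 2 that fell, in both lines. Myom1, myomesin, which crosslinks thick filaments at the M-band, was at 49.0 and 63.6 CPM in wild type, against 36.9 and 44.2 in RepB+/- and against 33.4 and 41.6 in RepB-/-, and fell in both lines (-0.48, SE 0.15, and -0.58, SE 0.14). Those calls were lost without wild-type replicate 2, and without replicate 1 of the Repeat B line compared (highest edgeR adjusted p = 0.362 and 0.246). Myom2, the form of fast and adult heart muscle, ran from 0.388 to 1.70 CPM, and Cmya5, myospryn, from 1.37 to 2.07; neither passed in either line, and Cmya5 was higher in RepB+/- than in wild type without overlap (log2 fold change 0.49, SE 0.35, not called).

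At the Z-disc, the plate that anchors actin, 4 of 8 tested members fell in RepB+/- and 5 in RepB-/-, and of those called Actn2 and Csrp3 had the lowest fold changes. It encodes the alpha-actinin of striated muscle and was at 46.6 and 61.6 CPM in the wild-type libraries, next to 23.6 and 25.6 for RepB+/- and 17.8 and 20.9 for RepB-/-. The 3 groups did not overlap, with log2 fold changes of -1.14 (SE 0.15, edgeR adjusted p = 0.00015) and -1.48 (SE 0.14, edgeR adjusted p = 1.74e-05). Csrp3, muscle LIM protein of the Z-disc, was at 8.05 and 7.63, 3.34 and 4.52, and 2.59 and 2.88 CPM (-1.07, SE 0.24, and -1.53, SE 0.23; both called, the first lost without wild-type replicate 1 or RepB+/- replicate 1, highest edgeR adjusted p = 0.0941). Ldb3, which binds alpha-actinin, was at 52.5 and 61.7, 35.6 and 41.1, and 31.5 and 41.7 CPM (-0.58, SE 0.14, and -0.64, SE 0.14; both called, both lost without wild-type replicate 2 and without replicate 1 of the line compared, highest 0.134 and 0.101).

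Des, desmin, the intermediate filament that links Z-discs, stood at 344 and 438 CPM in wild type, compared with 228 and 279 in RepB+/- and with 318 and 306 in RepB-/-. It fell in RepB+/- (log2 fold change -0.63, SE 0.14, edgeR adjusted p = 0.0067; not kept when wild-type replicate 2 was left out, adjusted p = 0.145) and did not pass in RepB-/- (-0.32, SE 0.14, adjusted p = 0.137), though both of those libraries lay below wild type. Xirp1, an actin-binding protein of the intercalated disc, went from 7.48 and 8.39 CPM in wild type to 4.42 and 5.95 in RepB+/- (-0.67, not called) and fell to 2.69 and 4.57 in RepB-/- (-1.14, SE 0.26). Ankrd1, a stress-responsive ankyrin repeat protein, was at 51.3 and 60.9, 42.7 and 47.0, and 38.5 and 41.6 CPM, and fell in RepB-/- (-0.48, SE 0.12) but did not pass in RepB+/- (-0.33, SE 0.12). The RepB-/- calls of Xirp1 and Ankrd1 were lost without wild-type replicate 2 or RepB-/- replicate 1 (highest edgeR adjusted p = 0.126 and 0.216).

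Other Z-disc members did not pass the test. Hspb7, a small heat shock protein of heart and muscle, stood at 177 and 174 CPM in wild type, against 149 and 178 in RepB+/- and against 182 and 194 in RepB-/-, with log2 fold changes of -0.11 (SE 0.11) and 0.10 (SE 0.11). Myoz2, a calcineurin-binding Z-disc protein, had the highest fold changes of any member at very low levels, 0.206 and 0.0848 CPM in the wild-type libraries, next to 0.492 and 1.68 for RepB+/- and 0.345 and 0.549 for RepB-/- (log2 fold change 2.36, SE 0.82, adjusted p = 0.0625, and 1.42, SE 0.86, adjusted p = 0.306). Without RepB+/- replicate 1 it passed (edgeR adjusted p = 0.0114). Tcap, telethonin, which caps titin, ran from 0.137 to 0.568 CPM, and Xirp2 from 0 to 0.0914; both were below the minimum for a test.

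Among the calcium-handling genes 1 of 3 tested members fell. Ryr2, the calcium release channel of the sarcoplasmic reticulum, was at 33.0 and 38.1 CPM in wild type, compared with 23.2 and 18.2 in RepB+/- and with 14.6 and 19.6 in RepB-/-, and fell in both lines (log2 fold change -0.75, SE 0.16, edgeR adjusted p = 0.00657, and -1.06, SE 0.16, edgeR adjusted p = 0.000512). With wild-type replicate 2 left out, the RepB+/- call did not hold (adjusted p = 0.0687). Ryr2 is also longer than 10 kb, where the RepB-/- libraries differed by length as given for Ttn. Pln, phospholamban, was at 2.89 and 2.88 CPM in wild type, against 2.28 and 2.20 in RepB+/- and against 1.31 and 1.69 in RepB-/-. It did not pass (-0.36, SE 0.32, and -0.95, SE 0.31, edgeR adjusted p = 0.0561 in RepB-/-). In RepB-/- it did pass with no low-count filter, with only the 2 genotypes compared and with a replicate block (edgeR adjusted p = 0.0354, 0.0249 and 0.0366). Pln overlaps Cep85l, with 1091 counts. Atp2a2, the SERCA pump found in most tissues, was at 308 and 312, 273 and 289, and 255 and 273 CPM and did not pass (-0.14, SE 0.11, and -0.23, SE 0.11), although its wild-type libraries lay above all others. Casq2, calsequestrin, the calcium store protein of the reticulum, was too low to test, at 0.129 to 0.424 CPM.

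The natriuretic peptide genes, which encode hormones of the atrium and the stressed ventricle, were low and did not pass. Nppa was at 0.619 and 0.763 CPM in the wild-type libraries, next to 0.737 and 0.646 for RepB+/- and 0.276 and 0.320 for RepB-/- (log2 fold change 0.07, SE 0.51, and -1.18, SE 0.55). Nppb was at 2.22 and 1.10, 2.39 and 1.42, and 2.69 and 1.33 CPM (0.25, SE 0.44, and 0.24, SE 0.42). The Nppb libraries of a genotype differed from each other more than the genotypes did.

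The lines with 1 and 2 Repeat B deletions were also compared directly, in the same fit. Myh7 was the 1 member that fell in RepB-/- against RepB+/- (log2 fold change -0.81, SE 0.11, edgeR adjusted p = 0.0210), and 0 rose. Of all genes 0.0858% were called in this comparison, 0.066% fell and 0.0198% rose, which is 13 genes, and Myh7 ranked 2 among them by p-value. Without RepB-/- replicate 1 or replicate 2 its adjusted p was 0.216 and 0.0755. Myh6 gave -0.63 (SE 0.16, adjusted p = 0.234), Nppa -1.25 (SE 0.54, adjusted p = 0.699) and Myl7 0.35 (SE 0.13, adjusted p = 0.556), none of which passed. Of members with 0 called risen, 2 (Myl7 and Des) were higher in RepB-/- at an unadjusted p under 0.05, and DESeq2 called 0. The mean levels of 18 tested members followed the order wild type, RepB+/-, RepB-/- from high to low, against 16.8% of all tested genes. That share is not a like base, because 27 of 31 tested members already had a log2 fold change below 0 in each line. The order therefore does not show a graded fall with the number of deletions. For Tnni3, Nebl, Xirp1 and Ankrd1, called only in RepB-/-, and Myl7 and Des, called only in RepB+/-, no difference between the lines passed.

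Ratios of related genes within a library, which do not depend on library scaling, did not separate the genotypes beyond what 2 against 2 libraries can show: the smallest p of an exact two-sided permutation test is then 0.3333, and 12 such tests were run. The ratio of Myh7 over Myh6, per kilobase of exon, was 0.556 and 0.491 in wild type, compared with 0.578 and 0.505 in RepB+/- and with 0.569 and 0.416 in RepB-/-. The values of the 3 genotypes overlapped. Tnni3 over Tnni1, the maturation switch of troponin I, was 0.0673 and 0.0793 in wild type, against 0.0883 and 0.0658 in RepB+/- and against 0.0449 and 0.0495 in RepB-/-. The mean log2 ratio was 0.63 lower in RepB-/- than in wild type (difference -0.63, exact permutation p = 0.3333), without overlap. Myl2 over Myl7, ventricular over atrial, was 0.0274 to 0.0409 over all libraries, and Nppb over Nppa was 1.51 to 9.80, with a log2 difference of 1.44 between RepB-/- and wild type (exact permutation p = 0.3333). That difference was 2.08 and 0.79 without wild-type replicate 1 and 2, and 0.82 and 2.05 without RepB-/- replicate 1 and 2.

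Reads that carry strain variants tell the 129 from the CAST copy of a gene. In these ES lines both copies were read on chromosome 13, where the median gene had 50.4% of its allelic reads from 129, while over other autosomes the median was 98.9%. Of 24 members with a mean of at least 20 allelic reads a library, 15 outside chromosome 13 were over 90% 129. An allele-by-genotype test in edgeR called 0 of the 24 in RepB+/- and 0 in RepB-/-, against 2.4% and 2.43% of the 11597 genes tested; at an unadjusted p under 0.05 there were 0 and 1 (Actc1, edgeR adjusted p = 0.807, where at least 98.8% of the allelic reads of each library were 129). Tnni3, Tnnc1 and Nppb had only 129 reads in every ES library, so the test could not estimate a shift for them. Nor could it for Myl7 in RepB-/-, where the wild-type and RepB-/- libraries had only 129 reads of that gene. The 0 called therefore does not show that allele shares were unchanged. No other tool was run on the alleles.

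In 7 tested members the pooled 129 share lay between 20% and 80%, limits chosen after the values were seen, so that reads assigned to both copies could be followed. Of these, Myl3 and Tpm1 lie on chromosome 9, Myl4 on 11, Csrp3 on 7 and Atp2a2 on 5. The source of the CAST-assigned reads away from chromosome 13 was not tested. Actn2, on chromosome 13, had 4.80 and 8.05 CPM of 129 reads in the wild-type libraries, next to 2.49 and 2.33 for RepB+/- and 2.59 and 2.47 for RepB-/-. Its CAST reads were at 6.04 and 7.38, 3.09 and 3.62, and 2.24 and 2.93 CPM. Both copies were thus lower, in every Repeat B library, than in either wild-type library. Ryr2, also on chromosome 13, had 129 means of 6.85 ± 2.54, 3.05 ± 1.75 and 2.87 ± 1.18 CPM (SD, n = 2) in wild type, RepB+/- and RepB-/-, and CAST means of 5.80 ± 1.27, 2.99 ± 0.39 and 3.18 ± 0.098. The 129 and CAST means of Tpm1 overlapped between genotypes, with log2 differences from wild type of 0.03 and 0.08 in RepB+/- and 0.04 and 0.06 in RepB-/-. In RepB-/-, both alleles of Myl3, Myl4, Actn2, Csrp3, Ryr2 and Atp2a2 lay below wild type without overlap. Of the 7 members, 5 had been called to have fallen in both lines from counts of all reads. Those counts include the allelic reads, so this is not a separate result. The share of all genes with both alleles lower in this way is not given here. In RepB+/-, the 129 values of Myl4 and Csrp3 overlapped those of wild type, and the CAST values did not.

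**Figure D3:**
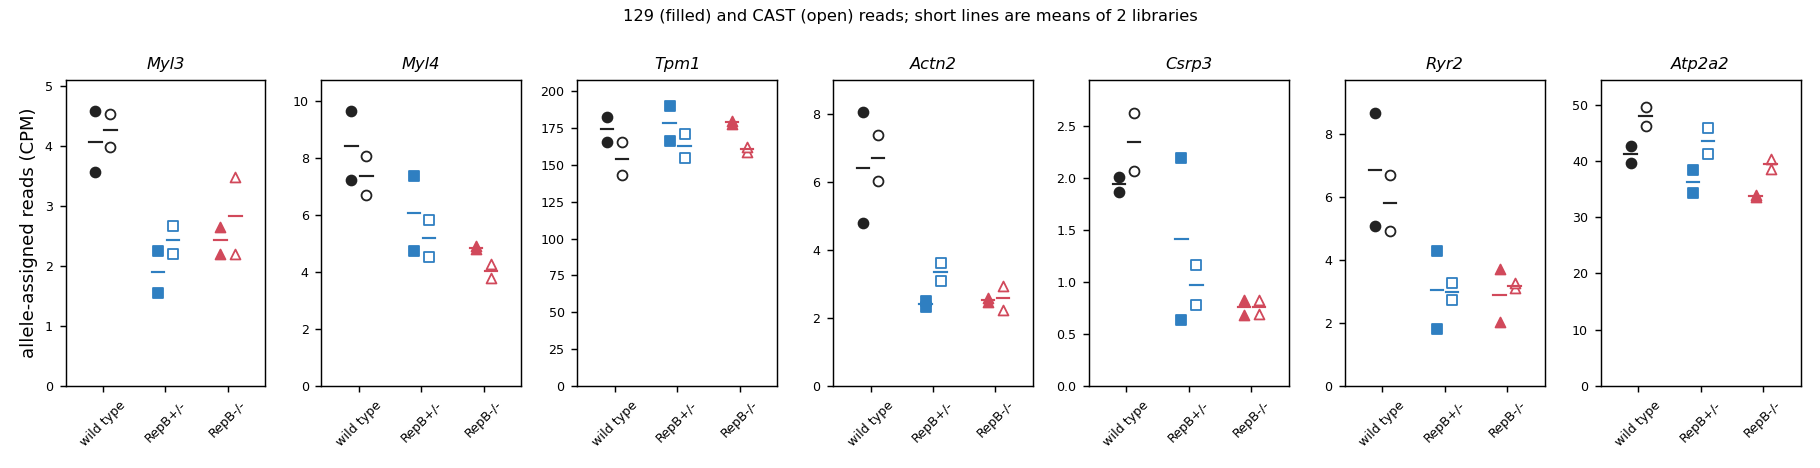
Allele-assigned reads of the 7 members with both alleles, in CPM from 0, for 129 (filled) and CAST (open) in wild type, RepB+/- and RepB-/-; each symbol is a library and each short line a mean of 2. Actn2 shows both alleles at 4.80 CPM or more in wild type and at 3.62 or less in the Repeat B lines, and Tpm1 shows no separation.

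MEF, which are not muscle, were used as a low reference, scaled on their own. In both MEF libraries 26 of the 34 members were under 1 CPM and 13 had 0 counts, a count that allows up to 0.259 CPM in the wild-type library and 0.154 CPM in the RepB library for counting error alone. Myh6 was at 0.0863 and 0.0513 CPM there, and Ryr2, Actn2 and Myl7 were at 0. Members at or over 10 CPM in both were Tpm1 (2058 and 1931 CPM), Atp2a2 (286 and 268), Ldb3 (25.1 and 27.2) and Ankrd1 (39.6 in wild type and 13.5 in RepB, a ratio of 0.341 with a 95% Clopper-Pearson interval of 0.292 to 0.397 that covers counting error only). Hspb7 was at 0.345 CPM in wild type and 2.10 in RepB (ratio 6.09, interval 2.21 to 23.4), and Myom1 was at 1.73 and 0.308 CPM (ratio 0.178, interval 0.0586 to 0.460). With 1 library a genotype no test is possible. In the ES comparisons the 23 tested members under 1 CPM in MEF had median log2 fold changes of -0.70 in RepB+/- and -1.06 in RepB-/-. The 4 at or over 10 CPM had -0.23 and -0.36, and among these Ldb3 fell in both lines and Ankrd1 in RepB-/-. The difference between the sets was not tested.

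Other muscle and tissue genes were counted in the same fit, from 12 lists chosen with earlier results of these data known. The counts of every list stand beside the shares of all tested genes. Those were 6.84% that fell and 9.12% that rose in RepB+/-, and 5.49% and 7.27% in RepB-/-. No test was run over any list. Of 23 other sarcomere and Z-disc genes 4 fell in RepB+/-, and 7 fell and 1 rose in RepB-/-. Among them Tmod1, which caps actin ends, fell in RepB-/- (log2 fold change -0.88, SE 0.15), and Pdlim3 fell in both lines (-0.67 and -0.88). These counts varied with single libraries, from 0 to 6 in RepB+/- and 3 to 10 in RepB-/-, the lowest without RepB+/- replicate 1 and RepB-/- replicate 1. Of 17 other calcium and excitation-contraction genes 3 fell and 1 rose in RepB+/- and 2 fell in RepB-/-: Hrc, the histidine-rich calcium-binding protein of the reticulum, went from 17.8 and 21.3 CPM to 6.71 and 6.98 and to 6.11 and 6.45 (-1.51, SE 0.18, and -1.63, SE 0.17), Slc8a1, the sodium-calcium exchanger, fell in both lines (-0.75 and -0.82), and Cacna1c, a calcium channel gene, rose in RepB+/- (0.56).

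Of 14 conduction and ion channel genes 1 fell and 1 rose in RepB+/-, where 16% of all genes were called. In RepB-/- 1 fell and 2 rose, where 12.8% of all genes were called. Popdc2 was the gene that fell, and the pacemaker channel gene Hcn4 was one that rose (0.80 and 0.88). Of 7 muscle energy genes 2 fell in RepB+/- and 3 in RepB-/-, with Pgam2, the muscle phosphoglycerate mutase, at -1.21 in both lines. Of 17 cardiac transcription factor genes 3 fell and 2 rose in RepB+/-, and 5 fell and 1 rose in RepB-/-. Those that rose were Isl1 (log2 fold change 0.93) and Tbx2 (0.54) in RepB+/-, and Gata5 (0.58) in RepB-/-. Irx4, a ventricular factor, went from 29.7 and 33.7 CPM to 8.50 and 10.3 and to 9.18 and 7.18 (-1.78, SE 0.17, and -1.94, SE 0.17), and Hand1 (-1.09 and -0.99) and Tbx5 (-0.73 and -0.66) fell in both lines, while Gata4 did not pass (0.03 and 0.14). Nkx2-5, a defining heart marker, was at 4.49 and 5.00 CPM in wild type. It did not pass in RepB+/-, at 4.07 and 4.65 CPM (-0.14, SE 0.25, adjusted p = 0.737), and fell in RepB-/-, at 2.66 and 2.65 CPM (-0.83, SE 0.24, edgeR adjusted p = 0.0355). The difference between the lines did not pass (adjusted p = 0.546).

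Markers of other cell types moved with the genotypes too. Of 14 pluripotency genes 12 rose and 1 fell in RepB+/-, and 10 rose and 1 fell in RepB-/-, with median log2 fold changes of 1.63 and 1.17. Their summed level was 374 to 439 CPM in wild type, 739 to 916 in RepB+/- and 616 to 707 in RepB-/-. Of 14 endoderm and yolk sac genes 11 rose in RepB+/- and 5 in RepB-/-, with summed levels of 359 to 378, 791 to 888 and 646 to 729 CPM. Pou5f1, a core factor of the pluripotent state, was at 32.1 and 39.0 CPM in wild type, compared with 127 and 90 in RepB+/- and with 98.2 and 82.0 in RepB-/- (log2 fold change 1.63, SE 0.16, and 1.35, SE 0.15; both called). Afp, a serum protein of yolk sac and liver, was at 103 and 95.5, 333 and 296, and 283 and 239 CPM (1.67, SE 0.12, and 1.40, SE 0.12; both called). Neither list had a gene at 0 in all ES libraries. The endoderm counts moved with single libraries, to 6 in RepB+/- without wild-type replicate 1 and to 8 at most in RepB-/-. The part of other cell types in the lower levels of heart muscle genes was not tested.

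Skeletal muscle shares many sarcomere proteins with heart. Of 11 tested skeletal muscle genes 0 fell and 2 rose in RepB+/-, and 0 fell and 3 rose in RepB-/- (Tnnt3, Mylpf and Myh8), with a summed level of 64.8 to 69.9 CPM in wild type, 75.4 to 79.5 in RepB+/- and 85.3 to 86.5 in RepB-/-; Myf5 had 0 counts in all ES libraries and Myod1 at most 0.518 CPM. Of 10 smooth muscle genes 2 fell and 2 rose in RepB+/-, and 1 fell and 2 rose in RepB-/-, with summed levels of 5150 to 5373, 3945 to 4968 and 4473 to 4776 CPM. Fibroblast genes (12; 1 fell and 3 rose in each line) summed to 19264 to 35561 CPM over the ES libraries, with both extremes in RepB+/-. Of 10 endothelial genes 1 fell and 4 rose in RepB+/- and 2 fell and 1 rose in RepB-/-, with Kdr falling in both lines, and of 8 neural genes 3 fell and 3 rose in RepB+/- and 3 fell and 2 rose in RepB-/-.

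**Figure D4:**
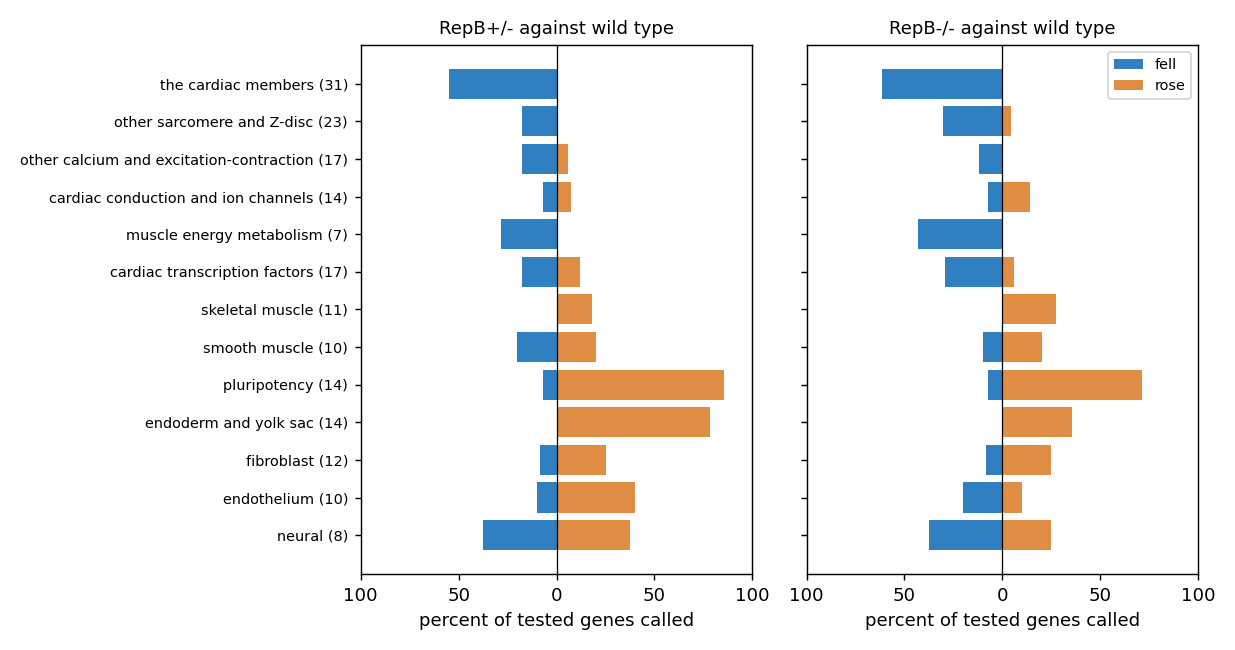
Percent of the tested genes of each list that fell (blue, to the left) or rose (orange, to the right) at an adjusted p under 0.05, in RepB+/- and RepB-/- against wild type; the number of tested genes is in brackets. The cardiac members reach 17 and 19 of 31 to the left with 0 to the right, and the pluripotency list reaches 12 and 10 of 14 to the right. Over all tested genes, which are not drawn, 6.84% fell and 9.12% rose in RepB+/-, and 5.49% fell and 7.27% rose in RepB-/-.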

How the data were processed

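RNA-seq counts per gene were analysed for 6 ES and 2 MEF libraries of a series of 50 samples; the other 42 samples were not analysed here. Per the submitters' processing notes the tools included cutadapt, TopHat, Novoalign, SAMtools and featureCounts, with the mm9 build; the authors deposited whole-number counts of all, 129 and CAST reads, and the strand setting is not given in the sources used here. Genes were filtered (filterByExpr, minimum count 10, minimum total 15), scaled by TMM and tested with edgeR 4.0.16's quasi-likelihood test on genotype alone, over 15149 genes, in R 4.3.3. Standard errors are the log2 fold change over the root of F. Allelic counts were tested for an allele-by-genotype term with a library block (mean of at least 20 allelic reads). CPM of MEF were scaled apart from ES. Scripts were tested on simulated data. For the allelic test these started from even shares of 129 and CAST reads, unlike the mostly 129 reads of most members tested. DESeq2 1.42.0, other scaling, no filter, 2 genotypes alone, a replicate block and leaving out each library were tried. All members are accounted for by role. From the other lists up to 3 called genes were named. Others (Acta1, Gata4, Nkx2-5, Isl1, Tbx2, Gata5, Cacna1c, Kdr, Hcn4 among them) were named after their values were seen. The members and lists were chosen with earlier results of these data known. Same-numbered replicates deviated together with r = 0.1075, 0.0696 and 0.1858 between genotypes over genes, so the numbers were not taken to pair the libraries.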

Additional observations from a re-analysis of the deposited data

Results flagged for a closer look

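In 7 members both libraries of RepB+/- and of RepB-/- lay below both wild-type ES libraries, while the RepB MEF library read higher than the wild-type MEF library. Of tested genes lower in this way in both ES lines, and with over 3 counts in a MEF library, 7 of 13 members (53.8%) and 1107 of 2669 of all genes (41.5%) read higher in RepB MEF. The 95% Clopper-Pearson interval of the MEF ratio, RepB over wild type, includes 1 for all 7, so no direction in MEF is shown, and the difference between the cell types was not tested, with 1 MEF library a genotype. Ldb3 was at 25.1 CPM in wild-type and 27.2 in RepB MEF (ratio interval 0.937 to 1.25), Myl4 at 1.38 and 2.31 (0.927 to 3.17), and Tnnc1 at 1.55 and 1.59 (0.555 to 1.94). The other 4 rested on 9 or fewer counts a library: Nebl at 0.259 and 0.462 CPM (0.445 to 10.2), Tnnt2 at 0.0863 and 0.308 (0.433 to 164), Myh7 at 0.173 and 0.256 (0.243 to 15.6), and Tnni3 at 0.0863 and 0.205 (0.235 to 117). Intervals cover counting error only.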

How the results depend on the processing

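Of the members called, 8 of 17 in RepB+/- and 9 of 19 in RepB-/- were called under all 11 alternatives, and every called member stayed below 0 in each. Leaving out 1 library gave 11 to 18 members that fell and 0 to 1 that rose in RepB+/-, 10 to 20 that fell in RepB-/-, and 0 to 1 that fell in RepB-/- against RepB+/-. With no low-count filter 1 member rose in RepB+/- (Myoz2) and 2 fell in RepB-/- against RepB+/- (Myh7 and Myh6). The labels do not say what same-numbered replicates have in common. With the replicate block 20 members fell and 1 rose in RepB+/-, 21 fell in RepB-/-, and 2 fell between the lines. Some calls were thus gained. Nebl and Xirp1 passed in RepB+/-, and Pln in RepB-/-, both with no low-count filter and with the block. Ankrd1 in RepB+/- and Des in RepB-/- passed with the block.

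Leaving out 1 library moved the log2 ratio of Myh7 over Myh6 from -0.0481 to 0.145 in RepB+/-, -0.328 to 0.124 in RepB-/- and -0.377 to 0.0752 between the lines, that of Tnni3 over Tnni1 in RepB+/- from -0.151 to 0.274, that of Myl2 over Myl7 in RepB-/- from -0.261 to 0.0189 and that of Nppb over Nppa in RepB+/- from -0.431 to 0.861. Uncalled members that changed sign ranged, in RepB+/-, from -0.176 to 0.00973 (Tpm1), -0.242 to 0.0178 (Hspb7), -0.115 to 0.192 (Nppa) and -0.300 to 0.886 (Nppb), and in RepB-/- from -0.0737 to 0.105 (Cmya5) and -0.380 to 0.883 (Nppb). Between the lines they ranged from -0.270 to 0.317 (Myl2), -0.156 to 0.330 (Myl3), -0.0699 to 0.113 (Tpm1), -0.131 to 0.246 (Tnni1), -0.0967 to 0.626 (Tnnc1), -0.945 to 0.738 (Nebl), -1.30 to 0.0198 (Ttn), -0.259 to 0.058 (Myom1), -0.185 to 1.57 (Myom2), -0.270 to 0.136 (Ldb3) and -0.618 to 0.532 (Nppb). There Myl2 was 0.0132 with the replicate block, and Nppb 0.036 under DESeq2 and 0.0941 with the block.

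For the other lists, leaving out 1 library gave, in RepB+/-, other sarcomere 0 to 6 fell; other calcium 0 to 1 rose; conduction 0 to 1 fell and 0 to 1 rose; energy 1 to 3 fell; cardiac transcription factors 0 to 2 rose; skeletal 0 to 1 fell and 0 to 2 rose; smooth muscle 0 to 3 fell and 1 to 2 rose; pluripotency 0 to 1 fell; endoderm 6 to 10 rose; fibroblast 1 to 3 fell and 1 to 3 rose; endothelium 2 to 4 rose; neural 0 to 3 fell. In RepB-/- the ranges were other sarcomere 3 to 10 fell and 0 to 1 rose, other calcium 2 to 4 fell and 0 to 1 rose, conduction 0 to 1 fell and 0 to 2 rose, energy 1 to 4 fell, cardiac transcription factors 2 to 5 fell and 0 to 1 rose, skeletal 1 to 4 rose, smooth muscle 1 to 2 rose, pluripotency 0 to 1 fell, endoderm 4 to 8 rose, fibroblast 1 to 2 fell and 1 to 3 rose, endothelium 0 to 1 rose and neural 0 to 3 fell. Pluripotency genes that rose stayed at 11 to 12 and 10 to 11.

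With no filter 7 other sarcomere genes fell in RepB+/-, and in RepB-/- 4 other calcium genes fell and 1 rose, 9 endoderm genes rose and 2 fibroblast genes fell. With the replicate block 8 other sarcomere and 6 other calcium genes fell in RepB+/-, and in RepB-/- 11 other sarcomere, 4 other calcium and 3 fibroblast genes fell and 2 other calcium and 9 endoderm genes rose. With only the 2 genotypes compared, 0 conduction and 1 smooth muscle gene fell in RepB+/-, and in RepB-/- 4 other calcium, 2 conduction and 2 fibroblast genes fell and 1 other calcium and 8 endoderm genes rose. DESeq2 gave 0 conduction genes that fell and 1 smooth muscle gene that rose in RepB+/-, and 0 other sarcomere and 1 conduction gene that rose and 2 fibroblast genes that fell in RepB-/-. The cause of these moves was not tested. With 2 libraries a genotype and 8000722 counts in the shallowest, members near 1 CPM could not be resolved.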
